A study of Mus musculus with 4 samples.

Results

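The genes described here are those of the proteasome, the barrel-shaped protease that degrades proteins tagged with ubiquitin, in the skin of mice. Members were taken by symbol, as every gene whose name starts with Psm followed by a letter from a to g and a digit, and 50 of the 25571 genes in the table met that rule. Skin RNA was sequenced in 4 groups (NC, MNs, PRP and PRP-MNs) of 1 library each. Platelet-rich plasma (PRP) is a platelet concentrate of blood, and microneedles (MNs) carry a load through the outer skin on small projections. PRP-MNs is named for both, PRP and MNs for 1 of them each, and NC, which the labels do not spell out, served as the reference. The labels give no strain, age, sex, harvest time or number of animals behind a library. Values are FPKM, which scales fragments to transcript length and library depth, so that levels of different genes can be compared. Estimated depth was 15.9 to 19.4 M fragments per library. With 1 library per group no difference between groups has a replicate check, and each one describes these libraries only.

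The core of the proteasome is a stack of rings, with alpha subunits outside and beta subunits inside. Cleavage is done by the beta subunits at positions 1, 2 and 5, whose genes are Psmb6, Psmb7 and Psmb5. Cells of the immune system, and other cells under interferon, make replacement subunits for these positions, Psmb9 (also LMP2), Psmb10 (MECL-1) and Psmb8 (LMP7), and a core that holds them is called the immunoproteasome. Its peptides favour loading on MHC class I molecules. Caps bind the ends of the core: a regulatory cap of ATPases (Psmc genes) and other subunits (most Psmd genes), which takes in ubiquitin-tagged protein, or the PA28 activator of Psme1 and Psme2, which interferon gamma is known to induce. By role, the 50 members were 3 constitutive and 3 immune catalytic subunits, the thymus catalytic subunit Psmb11, 8 alpha and 4 structural beta subunits, 6 cap ATPases, 11 other cap subunits, 3 genes of the PA28 alpha and beta activator, the 2 other activators Psme3 and Psme4, the inhibitor Psmf1 and 7 assembly chaperones. The last, Psmc3ip, meets the naming rule but encodes a meiotic recombination factor.

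The 6 catalytic genes lie on 5 chromosomes, with Psmb8 and Psmb9 near each other (GRCm38, GENCODE M21). Psmb9 (ENSMUSG00000096727) lies on chromosome 17 from 34181987 to 34187764 on the minus strand and Psmb8 (ENSMUSG00000024338) on the same chromosome from 34197721 to 34201454 on the plus strand, both inside the MHC region. The peptide transporter genes Tap1 (34187553 to 34197225) and Tap2 (34203527 to 34216321) lie between and beside them. Psmb10 (ENSMUSG00000031897) lies on chromosome 8 from 105935735 to 105938444, Psmb5 (ENSMUSG00000022193) on chromosome 14 from 54614119 to 54618022, Psmb6 (ENSMUSG00000018286) on chromosome 11 from 70525367 to 70527858 and Psmb7 (ENSMUSG00000026750) on chromosome 2 from 38588036 to 38644087. Stretches before the RefSeq gene starts (GRCm38.p6) of genes that differed and genes that did not are printed 5′ to 3′ on the gene's strand. They lie outside annotated exons except for Psmb8, whose start region is annotated as exon and of which 30 bases are shown. These 30 bases lie inside the GENCODE gene model of Psmb8 given above, not in front of it. Capitals mark a match to GAS, the gamma interferon activation site searched as TTCNNNGAA (Psmb8), or to the antioxidant response element, searched as TGACNNNGC (Psmb5 and Psmb6).
Psmb8, chr17:34198088-34198117, plus strand: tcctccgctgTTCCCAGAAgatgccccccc
Psmb10, chr8:105938445-105938642, minus strand: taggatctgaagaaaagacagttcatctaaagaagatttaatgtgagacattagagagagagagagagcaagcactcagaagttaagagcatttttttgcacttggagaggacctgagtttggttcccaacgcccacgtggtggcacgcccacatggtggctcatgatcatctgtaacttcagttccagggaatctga
Psmb5, chr14:54618023-54618245, minus strand: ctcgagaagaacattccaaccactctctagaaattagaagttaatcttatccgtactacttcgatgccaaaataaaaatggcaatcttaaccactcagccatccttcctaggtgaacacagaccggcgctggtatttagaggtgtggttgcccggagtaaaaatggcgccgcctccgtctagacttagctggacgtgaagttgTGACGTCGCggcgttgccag
Psmb6, chr11:70525107-70525356, plus strand: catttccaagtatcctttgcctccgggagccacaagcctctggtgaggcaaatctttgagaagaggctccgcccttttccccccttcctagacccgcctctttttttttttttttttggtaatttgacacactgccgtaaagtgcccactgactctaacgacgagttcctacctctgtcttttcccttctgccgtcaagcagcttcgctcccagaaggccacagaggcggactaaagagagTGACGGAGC

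In the 250 bases before the start, on both strands, the GAS letters were found in 2 of the 42 members with a RefSeq promoter (4.76%), Psmb8 and Psmg1, against 8.13% of all 27025 genes with a promoter. The match in Psmb8 ended 88 bases before the RefSeq start, at a place inside the GENCODE gene model. The antioxidant response element was found in 5 members (11.9%, against 11.5% of all), Psmb5, Psmb6, Psmc6, Psmd9 and Psmd12, ending 38 bases before the start in Psmb5 and directly before it in Psmb6. A core of the interferon-stimulated response element, searched as GAAANNGAA, was found in 3 members (7.14%, against 8.18%), Psmb3, Psmd4 and Psmd9, and the NF-kB consensus in 1, Psmd12 (2.38%, against 4.46%). The searched windows of Psmb10 and Psmb9 held none of these motifs. No stretch is printed for Psmb9, whose window lies in an annotated exon, or for Psmb7, which was not among the members with a RefSeq promoter. The GAS letters read the same on both strands, and matches to different motifs may overlap. In this window the members' shares stood near or under those of all promoters. With the 50 bases after the start included, the core of the interferon-stimulated response element was in 7 members (16.7%), against 9.76% of all promoters, so that this comparison turns with the window. The counts describe letters in short windows only.

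The 3 immune catalytic subunits were more than 2-fold above NC in PRP-MNs, and none of the 45 other members that reached 1 FPKM was 2-fold different between these libraries. Psmb8, the immune subunit with chymotrypsin-like activity, stood at 14.3 FPKM in NC, 24.1 in MNs, 31.8 in PRP and 57.4 in PRP-MNs. The level in PRP-MNs was 4.01 times that in NC, a ratio whose 95% counting interval ran from 3.61 to 4.46. Psmb10, the immune subunit with trypsin-like activity, stood at 11.99 FPKM in NC, 23.8 in MNs, 22.4 in PRP and 45.5 in PRP-MNs, and its ratio of PRP-MNs to NC was 3.80 (3.34 to 4.33). Psmb9, which replaces the caspase-like subunit, had the lowest level of the 3 in each library, at 11.7, 13.5, 16.4 and 30.03 FPKM in the same order, and a ratio of 2.57 (2.24 to 2.94). PRP-MNs was thus the highest library and NC the lowest for each of these genes. The intervals are exact intervals on approximate fragment numbers (between 304 and 1610 per library for these genes) and cover counting error only, not differences between animals.

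**Figure D1:**
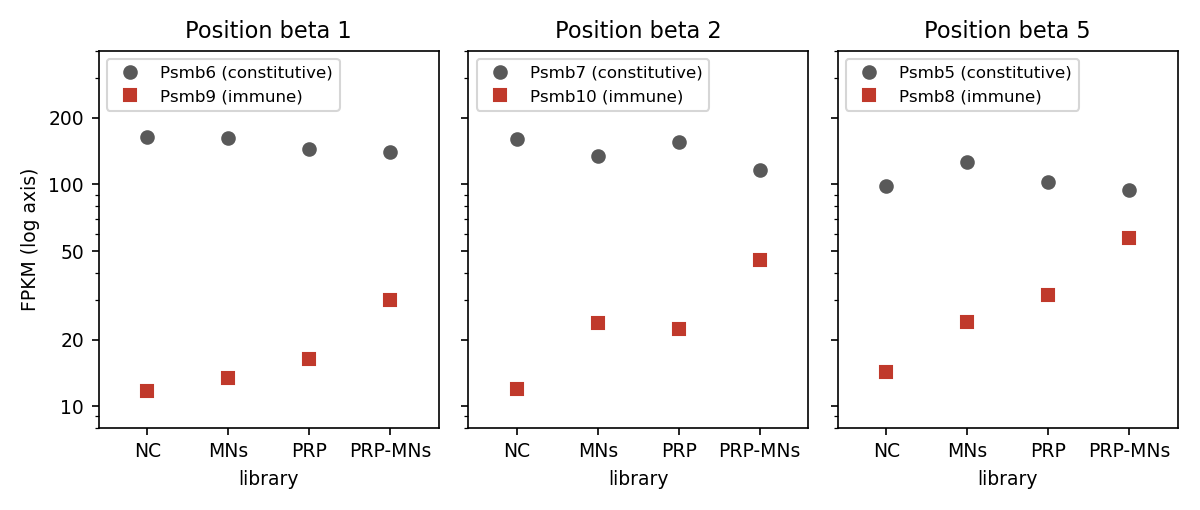
Level in FPKM (vertical log axis) of each constitutive catalytic gene (grey circles) and of the immune gene that replaces it (red squares) in the 4 libraries, 1 point per library with no error bar because each group has 1 library. The immune genes run between 11.7 and 14.3 FPKM in NC and from 30.03 to 57.4 FPKM in PRP-MNs, whereas the constitutive genes stay between 94.4 and 163 FPKM.

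Markers of blood-derived cells differed in the same libraries. All 12 leukocyte genes were past 2-fold above NC in PRP-MNs and in PRP, and 11 were in MNs. Of all tested genes, 17.6% were so in PRP-MNs, 7.78% in PRP and 15.7% in MNs. Their summed level was 140 FPKM in NC, 551 in MNs, 539 in PRP and 1690 in PRP-MNs. The sum was 12.1, 3.84 and 3.92 times that of NC in PRP-MNs, PRP and MNs, where the immune catalytic sum was 3.50, 1.86 and 1.61 times NC. Leukocytes are known to hold immunoproteasomes at rest, and their part in the rise of Psmb8, Psmb9 and Psmb10 was not tested. In bulk RNA, more cells of a type and more RNA per cell cannot be told apart. None of the 12 genes was at 0 in any library.

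The libraries named for 1 treatment lay between these ends. The level in PRP was 2.22 times that in NC for Psmb8 (1.98 to 2.50), 1.87 times for Psmb10 (1.61 to 2.17) and 1.40 times for Psmb9 (1.20 to 1.64). The level in MNs was 1.99 times that in NC for Psmb10 (1.73 to 2.29) and 1.68 times for Psmb8 (1.49 to 1.89). For Psmb9 the ratio of MNs to NC was 1.15, and its counting interval of 0.982 to 1.35 includes equal levels, so a difference was not detectable at this depth. The ratio of PRP to MNs was 1.32 for Psmb8 (1.20 to 1.46) and 1.22 for Psmb9 (1.05 to 1.42), and that of Psmb10, 0.939 (0.830 to 1.06), includes equal levels.

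PRP-MNs was above both of these libraries for each immune gene. Against PRP, its level was 1.81 times for Psmb8 (1.66 to 1.97), 1.84 times for Psmb9 (1.61 to 2.09) and 2.03 times for Psmb10 (1.82 to 2.27). Against MNs, it was 2.39 times for Psmb8 (2.19 to 2.61), 2.23 times for Psmb9 (1.96 to 2.55) and 1.91 times for Psmb10 (1.72 to 2.12). These comparisons share the PRP-MNs library, and the 12 leukocyte genes had medians of 1.54 and 1.43 in them, with 11 and 10 past 2-fold. Of all tested genes, 9.54% and 7.16% were at least 2-fold higher in the same comparisons.

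For Psmb8 and Psmb10 the gap between libraries with and without microneedles was about as large with PRP as without it, and for Psmb9 it was larger with PRP. The difference between libraries with and without microneedles was 0.83 (log2) in the presence of PRP and 0.71 in its absence for Psmb8, and 0.99 and 0.93 for Psmb10. In Psmb9 it was 0.84 with PRP and 0.19 without, which left a gap of 0.65, the largest among the 48 measured members. The lowest such gap was in Psmb5, at −0.47, and the median over the 48 was −0.03. With 4 libraries and no replicates these gaps have no test.

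The constitutive catalytic genes were each more abundant than the immune gene that replaces them, in every library, and stayed within 1.5-fold of NC. Psmb6, the caspase-like subunit, stood at 163 FPKM in NC, 161 in MNs, 144 in PRP and 141 in PRP-MNs. Psmb7, the trypsin-like subunit, stood at 160, 135, 156 and 116 FPKM in the same order. Psmb5, the chymotrypsin-like subunit, stood at 97.9, 126, 102 and 94.4 FPKM. In FPKM as deposited, PRP-MNs was the lowest library in all 3. Its ratios to NC were 0.729 for Psmb7 (0.692 to 0.768), 0.860 for Psmb6 (0.810 to 0.913) and 0.964 for Psmb5 (0.893 to 1.04). Psmb5 alone was highest in MNs. The order of libraries and the size of these small gaps depend on how libraries were scaled. Over the alternatives the median of the 3 genes between PRP-MNs and NC ran from −0.359 to −0.075 (log2). Psmb11, the catalytic subunit of thymus cortical cells, was listed at 0 in all 4 libraries.

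Within a library, the ratio of an immune gene to the gene it replaces does not depend on how libraries were scaled. It does depend on the transcript lengths behind the deposited FPKM, which are not known here. The counting intervals do not cover this. Psmb8 reached 0.608 of Psmb5 in PRP-MNs (0.564 to 0.655) and 0.146 in NC (0.131 to 0.163), with 0.191 in MNs and 0.311 in PRP. Psmb10 reached 0.391 of Psmb7 in PRP-MNs (0.363 to 0.421) and 0.0750 in NC (0.0665 to 0.0844), with 0.177 in MNs and 0.144 in PRP. Psmb9 reached 0.214 of Psmb6 in PRP-MNs (0.196 to 0.233) and 0.0715 in NC (0.0633 to 0.0805), with 0.0835 in MNs and 0.114 in PRP. All 3 ratios were highest in PRP-MNs, where they were 4.16 times (Psmb8), 5.21 times (Psmb10) and 2.99 times (Psmb9) those in NC, and in no library did an immune gene reach the level of its counterpart.

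In FPKM as deposited, the sum of all 6 catalytic genes was nearly the same in every library. It was 459 FPKM in NC, 483 in MNs, 472 in PRP and 484 in PRP-MNs. Its makeup was not. The immune genes together gave 38.0 FPKM in NC, 61.3 in MNs, 70.5 in PRP and 133 in PRP-MNs, which was 8.27%, 12.7%, 14.9% and 27.4% of the sum. The constitutive genes gave 421, 421, 402 and 351 FPKM. The immune sum in PRP-MNs was thus 3.50 times that in NC, and the constitutive sum 0.834 times. Unlike the shares, these sums and their ratios depend on library scaling. The FPKM of all genes together ran from 448607 in MNs to 515230 in NC, so the near-constant sum holds on the deposited scale only.

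**Figure D2:**
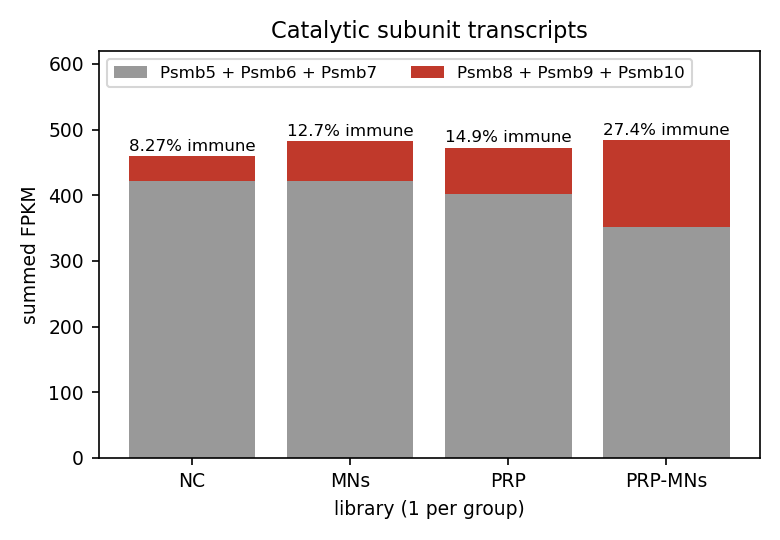
Stacked bars of the summed FPKM of the constitutive catalytic genes (grey) and the immune catalytic genes (red) in the 4 libraries, with the immune share printed above each bar. Bar heights, which depend on library scaling, stay between 459 and 484 FPKM while the immune share goes from 8.27% in NC to 27.4% in PRP-MNs.

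Over the whole complex, 48 of the 50 members reached 1 FPKM in at least 1 library of each comparison and were tested, in the sense that the difference of log2(FPKM + 1) was read against a limit of 2-fold. The other 2 were Psmb11 and Psma8, an alpha subunit of male germ cells, which was at most 0.161 FPKM. Between PRP-MNs and NC, 3 members (6.25%) were at least 2-fold higher, where 17.6% of all tested genes were, and 0 were lower, where 11.5% were. PRP against NC had 1 higher member, Psmb8, and 0 lower (7.78% and 1.46% of all tested genes). MNs against NC had 0 higher and 0 lower, although 15.7% and 7.12% of all tested genes were called. Between PRP-MNs and PRP there were 0 of either direction (9.54% and 7.5% of all), with Psmb10 just inside the limit at 0.99. PRP-MNs against MNs had 2 higher, Psmb8 (1.22) and Psmb9 (1.10), and 0 lower (7.16% and 7.39% of all). PRP against MNs had 0 of either (4.62% and 5.99% of all). The share of members past the limit was thus below that of all tested genes in every comparison and direction, and each member past it was an immune catalytic subunit. All tested genes were not matched to the members in level.

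Rescaling the libraries to the same FPKM sum without mitochondrial genes put Psmb10 past the limit in MNs against NC (1.08) and in PRP-MNs against PRP (1.06), and a pseudocount of 0.1 FPKM did so in the latter (1.02). The 3 comparisons with NC share that library, and their values stand side by side here for description only.

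The 45 tested members outside the immune catalytic role were steady. On the log2(FPKM + 1) scale all 45 lay within 1.5-fold between PRP-MNs and NC, from −0.55 for Psmb1 to 0.51 for Psmd9, with a median of 0.12, while 52.3% of all tested genes lay within 1.5-fold, with a median of 0.14. In MNs against NC all 45 did so too (58.2% of all genes), although Psmd9 (0.58 on that scale) had an FPKM ratio of 1.57, and in PRP against NC 44 did (75.1% of all genes), the exception being Psmd11. The shares over all tested genes, which need 1 FPKM in only 1 of the libraries compared, were not matched to these members in level. From the lowest to the highest of the 4 libraries these 45 genes spanned a median of 1.25-fold, with a range from 1.07-fold in Psma4 to 1.57-fold in Psmd9. The corresponding spans of Psmb8, Psmb10 and Psmb9 were 4.01, 3.80 and 2.57.

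**Figure D3:**
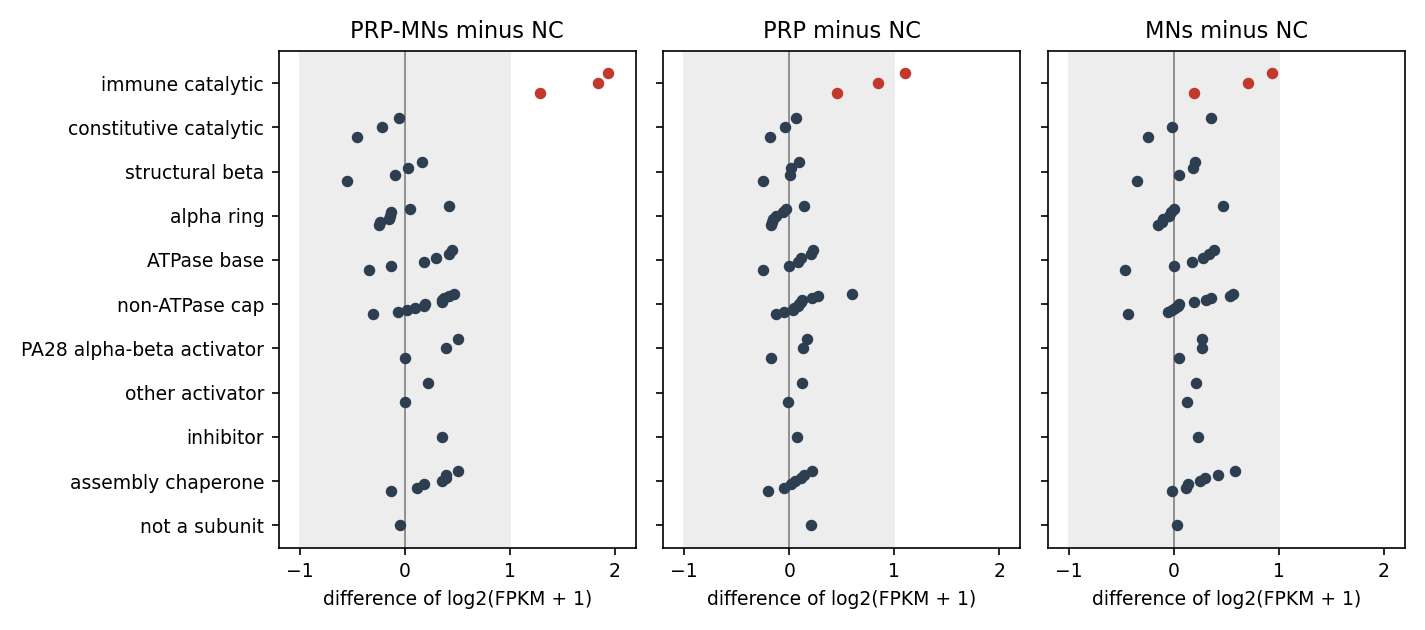
Difference of log2(FPKM + 1) between each treated library and NC (horizontal axis) for the 48 tested members, 1 point per gene, grouped by role; the shaded band marks differences under 2-fold. The immune catalytic genes (red) lie from 1.29 to 1.93 in PRP-MNs, and every other member lies inside the band in all 3 panels.

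Among the alpha subunits, which form the gate and outer rings of the core, 7 were measured and Psma7 was the most abundant, at 173 FPKM in NC, 172 in MNs, 155 in PRP and 145 in PRP-MNs. The lowest differences between PRP-MNs and NC were those of Psma7 (−0.25) and Psma6 (−0.23), and the highest those of Psma5 (0.42) and Psma4 (0.05). Psma5 stood at 49.5, 69.0, 54.6 and 66.6 FPKM in the same order of libraries, so that both libraries with microneedles were above both without. The role's median was −0.14, with 5 of 7 below 0.

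Of the structural beta subunits, which carry no active site, Psmb1 was at 124 FPKM in NC, 97.3 in MNs, 104 in PRP and 84.7 in PRP-MNs. Its difference of −0.55 between PRP-MNs and NC was the lowest of all members. Psmb4 (−0.10), Psmb3 (0.03) and Psmb2 (0.17) differed by less. The most abundant of them, Psmb4, ran from 138 FPKM in PRP-MNs to 153 FPKM in MNs.

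The cap ATPases unfold the substrate and thread it into the core. Psmc4 stood at 54.5 FPKM in NC, 71.2 in MNs, 57.9 in PRP and 74.9 in PRP-MNs, again higher in both libraries with microneedles, with a difference of 0.45 between PRP-MNs and NC. Psmc1 differed by 0.42, Psmc5 by −0.13 and Psmc6 by −0.34. Psmc6 had its highest level in NC (94.5 FPKM) and its lowest in MNs (68.4 FPKM). The median of the 6 was 0.24.

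In the rest of the cap, Psmd4, a receptor for ubiquitin chains, stood at 76.2 FPKM in NC, 94.6 in MNs, 92.4 in PRP and 106 in PRP-MNs, a difference of 0.47 between the first and the last. Psmd11, a scaffold of the lid, stood at 41.5, 41.9, 63.1 and 55.9 FPKM, so that both libraries with PRP were above both without. Its difference from NC was 0.42 in PRP-MNs and 0.59 in PRP. Psmd8, a lid subunit and the most abundant gene of the cap, went the other way between microneedle and other libraries, at 171, 126, 183 and 138 FPKM, with a PRP-MNs to NC difference of −0.31. That of Psmd6 was −0.06. In MNs against NC the highest difference of the cap was that of the scaffold subunit Psmd2 (0.56), at 76.6 FPKM in NC and 114 FPKM in MNs, followed by the scaffold subunit Psmd1 (0.54), at 44.1 and 64.5 FPKM. Psmd14, the cap's deubiquitinase, had its lowest value in NC (68.4 FPKM) and its highest in PRP-MNs (78.0 FPKM).

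Set side by side, the constitutive core and the cap lay on opposite sides of 0 by small amounts. Between PRP-MNs and NC, 10 of 14 constitutive core genes were below 0 and 13 of 17 cap genes above it, with medians of −0.13 and 0.19. The median over all tested genes was 0.14 there, so that of the cap was near it. The cap set holds genes of the naming rule only. It leaves out the small cap subunit Sem1, at −0.73 between PRP-MNs and NC. The 13 tested proteasome genes outside the rule had a median of −0.04 in that comparison. The gap of 0.33 between the core and cap medians compares with 0.15 in PRP against NC and 0.20 in MNs against NC. The core's direction rested on the scaling: over the alternatives its median ran from −0.28 to 0.01 in PRP-MNs against NC, while that of the cap stayed between 0.05 and 0.34. The summed FPKM of the core was 1630, 1630, 1550 and 1480 in NC, MNs, PRP and PRP-MNs, and that of the cap 1330, 1430, 1420 and 1470. All 50 members summed to 3331, 3503, 3385 and 3472 FPKM in the same order.

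The PA28 activator genes differed less than the immune catalytic genes. Psme1 (PA28 alpha; chromosome 14, 55578123 to 55581529) stood at 65.8 FPKM in NC, 79.5 in MNs, 73.8 in PRP and 93.9 in PRP-MNs, and its ratio of PRP-MNs to NC was 1.43 (1.31 to 1.56). Psme2 (PA28 beta; chromosome 14, 55587441 to 55591113) stood at 78.2, 81.1, 69.4 and 78.3 FPKM, with a ratio of 1.00 (0.925 to 1.08). Psme2b, a single-exon copy of Psme2 on chromosome 11, was listed at 24.0, 29.2, 26.4 and 31.9 FPKM. Fragments of Psme2 and Psme2b could be split between the copies, so both values are uncertain. In NC Psme1 and Psme2 stood above Psmb8, at 14.3 FPKM, and they did so in PRP-MNs too, where Psmb8 reached 57.4 FPKM.

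The other activators were also steady. Psme3 (PA28 gamma, which acts in the nucleus) stood at 43.5 FPKM in NC, 47.5 in MNs, 43.3 in PRP and 51.0 in PRP-MNs. The mean of Psme1 and Psme2 was 1.65, 1.69, 1.65 and 1.69 times Psme3 in the same order, which is nearly the same ratio in each library. That mean joins genes that moved apart. The ratio of PRP-MNs to NC was 1.43 for Psme1, 1.00 for Psme2 and 1.17 for Psme3. Relative to Psme3, Psme1 was thus higher in PRP-MNs than in NC, and Psme2 was lower. Set against the mean of the constitutive catalytic genes, the same mean was 0.513 in NC, 0.572 in MNs, 0.535 in PRP and 0.735 in PRP-MNs. Psme4 (PA200) was at 25.5 FPKM in both NC and PRP-MNs and highest in MNs, at 29.7 FPKM. Psmf1, an inhibitor of the core also called PI31, went from 5.31 FPKM (NC) to 7.06 FPKM (PRP-MNs).

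Assembly chaperones, which guide subunits into place and leave the finished particle, lay between 6.94 and 19.9 FPKM. Psmd9, a chaperone of the ATPase ring, stood at 6.94 FPKM in NC, 10.9 in MNs, 7.02 in PRP and 10.3 in PRP-MNs. Both libraries with microneedles were thus above both without, with a difference of 0.51 between PRP-MNs and NC. Psmd10 (gankyrin) differed by 0.40, Psmd5 by 0.12 and Psmg1, a chaperone of the alpha ring, by −0.13. The median of the 7 was 0.35. Psmc3ip, the recombination factor, ran from 4.33 FPKM in PRP-MNs to 5.37 FPKM in PRP.

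Proteasome genes outside the naming rule also stayed within 2-fold. Of 14 listed, 13 were tested (Paaf1 was not analysed here), 0 were 2-fold higher or lower in any comparison, and their median between PRP-MNs and NC was −0.04. Of all tested genes, 1.46% to 17.6% were called per comparison and direction, and 0 of 13 is near the lower of these shares. Pomp, the assembly factor of new cores, stood at 65.0 FPKM in NC, 60.5 in MNs, 63.0 in PRP and 60.2 in PRP-MNs. The lowest was the small cap subunit Sem1, at 57.8, 30.5, 38.4 and 34.6 FPKM, a difference of −0.73 between PRP-MNs and NC. The ubiquitin shuttle Ubqln2 had the highest, at 0.55.

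Several genes that load peptides on MHC class I passed 2-fold in PRP-MNs. Of 11, 4 were past 2-fold above NC in PRP-MNs, 1 in PRP and 2 in MNs, beside 17.6%, 7.78% and 15.7% of all tested genes, and 0 were below it. The counts in PRP and MNs are near those shares. Tap1, the transporter gene that starts next to Psmb9 on the other strand, stood at 19.05 FPKM in NC, 20.6 in MNs, 26.0 in PRP and 59.3 in PRP-MNs. Its differences from NC of 1.59, 0.43 and 0.11 in PRP-MNs, PRP and MNs stand beside 1.29, 0.45 and 0.19 for Psmb9, and in both genes MNs was close to NC. The 2 gene models overlap by 212 bases and no source used here states whether strands were kept apart, so fragments from the overlap cannot be assigned. Tap2, next to Psmb8, differed from NC by 1.37, 0.64 and 1.22, against 1.93, 1.10 and 0.71 for Psmb8. From NC to PRP-MNs the tapasin gene Tapbp went from 29.1 to 124 FPKM, the chaperone Calr from 142 to 430 FPKM, and the light chain B2m from 1077 to 2020 FPKM. The difference of B2m, 0.91 (log2), was under 2-fold, as was the median of the 11 genes, 0.84.

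Of 15 genes that regulate proteasome genes, 14 were tested. In PRP-MNs 6 were at least 2-fold above NC and 0 below, in PRP 2 and 0, and in MNs 2 and 1, the lower one being Nlrc5. Of all tested genes 17.6%, 7.78% and 15.7% were higher and 11.5%, 1.46% and 7.12% lower in these comparisons, so that the counts in MNs are near the background. Irf1, an interferon-responsive factor known to act on Psmb9, stood at 6.02 FPKM in NC, 16.0 in MNs, 12.6 in PRP and 53.2 in PRP-MNs. Irf8, a factor of myeloid cells, was 2.88 above NC (log2) in PRP-MNs, and the cytokine Tnf 2.27 above. The gene of interferon gamma itself, Ifng, had 0.206 FPKM as its highest value, in PRP-MNs, close to what 3 fragments give on a transcript of 1 kb (0.174 FPKM), and MNs and NC listed it at 0. Nlrc5, an activator of MHC class I genes, was highest in NC, at 20.5 FPKM, and lowest in MNs, at 5.68 FPKM. Nfe2l1, the factor that raises constitutive proteasome genes when the proteasome is blocked, was at 108, 94.5, 131 and 91.4 FPKM, and Nfe2l2, a factor of the oxidative stress response, at 37.1, 56.4, 34.8 and 71.6 FPKM.

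**Figure D4:**
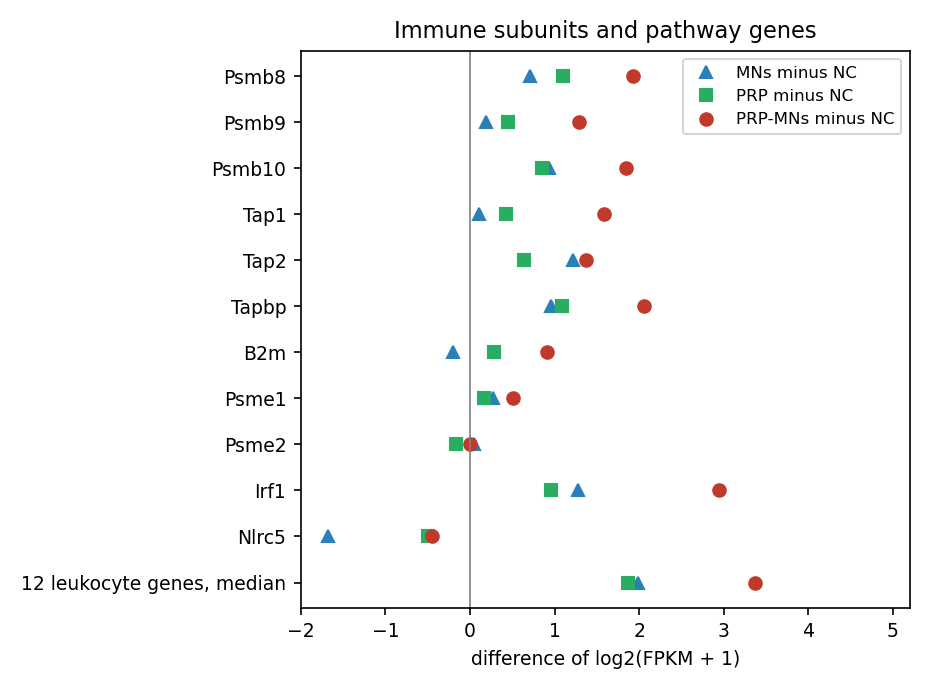
Difference of log2(FPKM + 1) from NC for the immune catalytic genes, neighbouring and pathway genes, and the median of 12 leukocyte genes, with 1 symbol per treated library. PRP-MNs is the rightmost library in 10 of the 11 named genes, Psme2 and its value of 0.00 being the exception, and the leukocyte median lies at 3.37, to the right of every named gene.

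Marker genes of cell types in skin also differed between libraries. In PRP-MNs all 7 monocyte and macrophage genes were past 2-fold above NC (summed level 2560 against 205 FPKM), as were all 6 neutrophil genes (1020 against 234 FPKM). Of all tested genes, 17.6% were so. In MNs and PRP the sums were 751 and 903 FPKM for the monocyte and macrophage genes, and 182 and 406 FPKM for the neutrophil genes. The neutrophil sum in MNs was thus below that in NC, although 3 of the 6 genes were past 2-fold above NC there. In the T and NK cell list the T cell genes Cd3g and Cd3e were lower in PRP-MNs than in NC, at 3.91 against 17.1 FPKM and 1.44 against 5.33 FPKM, while the granule protease Gzmb was at 7.79 against 0.121 FPKM. The 8 keratinocyte genes were present in every library under the skin label, and their sum was 17300 FPKM in NC, 7320 in MNs, 12200 in PRP and 3700 in PRP-MNs. The summed levels in NC, MNs, PRP and PRP-MNs were 858, 7180, 1840 and 974 FPKM for 6 fibroblast genes, 17.4, 99.5, 48.4 and 147 FPKM for 5 endothelial genes and 3790, 3760, 6720 and 5940 FPKM for 7 skeletal muscle genes. Their part in the proteasome values was not tested either.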

How the data were processed

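Values are FPKM as the authors deposited them, per the file headers, with 1 column for each library. Processing notes of the submitters name GRCm38 as the build. The sources used here do not name the aligner, quantifier or annotation. Libraries were made with the NEBNext Ultra kit, per the labels' protocols. Members and gene lists were chosen with earlier results of these data known. Groups come from the treatment label of each sample.

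Differences are of log2(FPKM + 1), over genes at 1 FPKM or more in at least 1 of the 2 libraries, and 2-fold was the limit for a call. With 1 library per group no test or p-value was computed across genes. Low values of genes with a single transcript fell on steps that gave about 17.2, 15.9, 18.6 and 19.4 M fragments in PRP-MNs, PRP, MNs and NC. These steps held 22.9% to 27.6% of low values within 0.02 of a whole number, so reads were not recovered. A floor of 3 fragments on 1 kb was 0.155 to 0.189 FPKM, for counting error only. Approximate fragments from these depths and the median GENCODE M21 transcript length gave exact 95% intervals of ratios (scipy 1.17.1). Transcript lengths of genes with several transcripts are uncertain, which changes the intervals but not the ratios between libraries. Ratios between genes within a library also depend on the lengths used by the authors. All 50 members matched GENCODE by identifier, and 42 had a promoter in RefSeq.

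Named by rule were all catalytic subunits and activators, Psmf1 and Psmc3ip, the 2 highest and 2 lowest of each other role in PRP-MNs against NC, any member past 2-fold, and chosen pathway and marker genes. Psmd1, Psmd2, Psmd14, Ubqln2, Sem1, Cd3e and Gzmb, and members named for an extreme in a library, were added after their values were seen. The calculation was tested on simulated data. Protein sequences were not used here. Some genes of the pathway lists are not reported here.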

Additional observations from a re-analysis of the deposited data

How the results depend on the processing

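No paired analysis was possible because each group has 1 library, and no library could be left out. Alternatives were a pseudocount of 0.1 FPKM, no filter, a filter at 5 FPKM, libraries rescaled to the same FPKM sum without mitochondrial genes, and differences centred on the median of all genes. A rescaling to the same geometric mean of the members outside the immune catalytic role, and a sum of Psme2 and Psme2b, were added after seeing the data. Of 36 recomputed counts of higher members 33 were within 1.5 times the reported count. The number in PRP-MNs against PRP became 1 in place of 0 with the pseudocount of 0.1 FPKM and with the same FPKM sum, and the number in MNs against NC became 1 in place of 0 with the same FPKM sum, the gene being Psmb10 each time. All 36 counts of lower members were 0 as reported. All 186 medians by role stayed on their side of 2-fold, and that of the immune catalytic genes ran from 1.70 to 1.98 in PRP-MNs against NC, 0.81 to 0.92 in PRP against NC and 0.55 to 0.86 in MNs against NC. The medians of the other roles lay far inside 2-fold, so this limit checks little for them, and some changed sign. That of the constitutive core ran from −0.28 to 0.01 in PRP-MNs against NC and from −0.18 to 0.13 in MNs against NC. The same-sum scaling shifted the all-gene median by 0.12 in PRP-MNs against NC and 0.13 in MNs against NC, and rescaling on the other members shifted it by −0.11 in MNs against NC. Adding 1 FPKM to both genes moved no ratio of immune to constitutive genes beyond its counting interval, and the immune share and the activator ratios by less than 10%. Extending the promoter window to 50 bases after the start raised the members with the interferon-stimulated response element core from 3 (7.14%) to 7 (16.7%), while the share over all promoters went from 8.18% to 9.76%, and the cause was not tested.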

Other observations

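The ubiquitin-like modifier ISG15 and its enzymes had median differences from NC of 3.36 in PRP-MNs, 1.73 in PRP and 1.14 in MNs. In PRP-MNs all 6 genes of this list were past 2-fold above NC, with 5 in PRP and 3 in MNs, beside 17.6%, 7.78% and 15.7% of all tested genes. Isg15 stood at 4.77 FPKM in NC, 17.8 in MNs, 67.5 in PRP and 427 in PRP-MNs. The protease Usp18, which removes ISG15, stood at 2.66, 4.91, 10.8 and 59.0 FPKM, and the E2 enzyme Ube2l6 at 4.55, 13.2, 22.8 and 56.1 FPKM in the same order. Of the libraries named for a single treatment, PRP was above MNs for each of these 3 genes.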
